A study of Mus musculus with 9 samples.

Results

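The *Nduf* genes encode the nuclear-encoded subunits of mitochondrial complex I and a set of factors that help to build it. They were taken from the expression table as every protein-coding gene whose symbol begins with *Nduf*, which gave 45 of 26858 genes. Of these, 38 carry a subunit name (*Ndufa*, *Ndufb*, *Ndufc*, *Ndufs* or *Ndufv*) and 7 are named as assembly factors (*Ndufaf*). Their transcript levels were compared in SIX2-expressing nephron progenitors that lacked QPC (gene symbol *Uqcrq*), a subunit of the neighbouring complex III, to ask whether the subunits and the assembly factors of complex I differed between genotypes. Of these 7 assembly factors, *Ndufaf4* rose 1.59-fold and *Ndufaf6* 1.5-fold, while no subunit gene passed the test. Of 11 assembly factors without an *Nduf* name, 0 passed. Over all genes tested, 14.8% passed.

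Cells were sorted for the eGFP/Cre fusion protein from mouse kidneys at embryonic day E18.5, and RNA-seq was carried out on 4 preparations from *Six2-Qpc*+/- controls (heterozygous; Cont 71, 72, 73 and 76) and 5 from *Six2-Qpc*-/- mutants (knockout; QpcKO 74, 75, 77, 78 and 79). Both genotypes carried the *Six2-eGFP/cre* bacterial artificial chromosome transgene, which drives Cre and the sorted reporter in the same cells. The control cells had also lost 1 *Qpc* allele, so the comparison is of no intact allele against 1, and not against wild type. The labels do not say whether each preparation came from a separate animal, so the p-values measure the spread between these preparations. RNA was amplified from few cells, and each library held between 21040536 and 23986458 counted reads. *Uqcrq* had 94.1 ± 13.3 CPM (counts per 1000000 of the TMM-normalized total; SD, n = 4) in controls and 21.3 ± 4.45 CPM (n = 5) in mutants, with no overlap (2-sided exact permutation test, p = 0.00794, the smallest that 126 splits allow). Of 7 progenitor markers, which included *Six2*, *Cited1* and *Eya1*, 0 passed the edgeR test (14.8% of all genes tested). An unadjusted p under 0.05 was found for 2 (31.4% of all). DESeq2 called 0 (21.2% of all) and limma-voom called 1 (*Six2*, higher; 32.4% of all). The fit with 1 surrogate variable called 2 (*Six2* higher and *Crym* lower), where 20.8% of all genes were called. The members differed in sign in the edgeR fit, from −0.42 for *Crym* (adjusted p = 0.0698) to 0.30 for *Six2* (adjusted p = 0.131). Their summed level was 2042 to 2503 CPM in controls and 2029 to 2473 CPM in mutants.

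Complex I takes electrons from NADH, passes them to ubiquinone and pumps protons across the inner mitochondrial membrane. It is shaped like an L. The arm in the matrix holds the flavin, the iron-sulfur clusters and the ubiquinone site, and the arm in the membrane holds the proton pumps, which are encoded by mitochondrial DNA. A catalytic core is surrounded by accessory subunits, and the modules are first assembled separately by factors that are absent from the finished enzyme. Complex III takes the electrons on from ubiquinol, and both complexes join in supercomplexes. In the kidney, the tubule cells that arise from SIX2 progenitors depend heavily on oxidative phosphorylation.

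*Ndufaf4* (ENSMUSG00000028261, chromosome 4, 24898083 to 24905001, plus strand, GRCm38) was the member with the largest rise. Its promoter, from 250 bases before to 50 bases after the start of transcription in RefSeq (GRCm38.p6), is shown because it held the letters GCGCATGCGC, the recognition motif of nuclear respiratory factor 1 (NRF1), a regulator of many respiratory chain genes. The same letters, searched on both strands, occurred in 3 of the 41 promoters that RefSeq listed for 39 of the 45 genes, and in 0.971% of all 32851 promoters of this length. The other promoters with them belonged to the assembly factor *Ndufaf5* and the membrane arm subunit *Ndufa11*, neither of which passed the test. The capitals mark the motif, which began 113 bases before the start in *Ndufaf4*, 60 bases before it in *Ndufa11* and 16 bases after it in *Ndufaf5*.
*Ndufaf4* (chr4:24897833-24898132, plus strand): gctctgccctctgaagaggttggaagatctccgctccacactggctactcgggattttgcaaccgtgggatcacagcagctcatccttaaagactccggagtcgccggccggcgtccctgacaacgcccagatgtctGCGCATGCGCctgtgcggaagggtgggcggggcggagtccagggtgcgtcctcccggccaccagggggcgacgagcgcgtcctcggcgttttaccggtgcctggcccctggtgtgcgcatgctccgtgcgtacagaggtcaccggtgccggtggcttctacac
*Ndufaf5* (chr2:140170396-140170695, plus strand): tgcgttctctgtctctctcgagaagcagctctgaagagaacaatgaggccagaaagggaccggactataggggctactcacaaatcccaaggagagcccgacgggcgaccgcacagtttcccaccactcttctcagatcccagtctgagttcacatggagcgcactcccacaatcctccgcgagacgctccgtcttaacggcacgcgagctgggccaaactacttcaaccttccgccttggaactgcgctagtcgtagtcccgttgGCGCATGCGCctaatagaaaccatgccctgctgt
*Ndufa11* (chr17:56717512-56717811, plus strand): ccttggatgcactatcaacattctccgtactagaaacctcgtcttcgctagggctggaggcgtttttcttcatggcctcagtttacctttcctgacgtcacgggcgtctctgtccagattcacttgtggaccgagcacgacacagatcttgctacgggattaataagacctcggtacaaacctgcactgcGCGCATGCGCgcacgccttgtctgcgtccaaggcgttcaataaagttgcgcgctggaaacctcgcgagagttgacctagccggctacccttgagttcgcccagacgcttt
The match is a description of the sequence. It was present in 1 gene that rose and in 2 that did not pass the test. Of the other motifs searched on both strands, the ETS letters CCGGAAG were in 5 of the 41 promoters (8.86% of all promoters). The E-box CACGTG was in 3 (7.15%) and the ATF4 letters TGATGNAA in 0 (3.97%). The 3 promoters with the E-box belonged to 2 genes, *Ndufv1* and *Ndufa7*, whose 2 listed promoters overlap and hold the same site. The YY1 letters AAGATGG were in 7 (6.34% of all), namely those of *Ndufa3*, *Ndufa9*, *Ndufb8*, *Ndufc1*, *Ndufs4*, *Ndufs6* and *Ndufs7*, and in each of these genes they lay between 22 and 38 bases after the start. The NRF1 and YY1 letters did not occur together in any of these promoters. Promoters of *Ndufaf6*, *Ndufa4l2*, *Ndufb9*, *Ndufa2* and *Ndufs1* were not analysed here.

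All 45 genes passed the filter on low counts. With edgeR's quasi-likelihood test and Benjamini-Hochberg adjustment over all 14990 genes tested, 2 of the 45 genes had an adjusted p under 0.05, both higher in mutants, where 14.8% of all genes tested passed, 7.82% higher and 7.02% lower. None of the 38 subunit genes was called (0 of 38), and 2 had an unadjusted p under 0.05, against 31.4% of all genes tested. DESeq2 called 0 of the 38 (21.2% of all genes), limma-voom with quality weights called 3, 2 higher and 1 lower (32.4% of all genes), and edgeR with 1 surrogate variable in its design called 3, all lower (20.8% of all genes). The median log2 fold change of the subunit genes, mutant against control, was −0.03 (0.07 by limma-voom, −0.13 after adding 1 surrogate variable), and that of all genes tested was −0.0085. The 95% interval of the fold change lay within 1.5-fold in either direction for 35 of the 38 subunit genes, compared with 32.7% of all genes tested, and within 2-fold for 37, compared with 65%. These shares depend on the size of the estimate as well as on the width of its interval. The quartiles of the log2 fold change over all genes tested were −0.32 and 0.28. Standard errors of the subunit genes were 0.10 to 0.53 on the log2 scale with a median of 0.14, while the median over all genes tested was 0.19. In a bulk measurement of sorted cells, fewer cells of a type and less RNA per cell cannot be told apart.

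**Figure D1:**
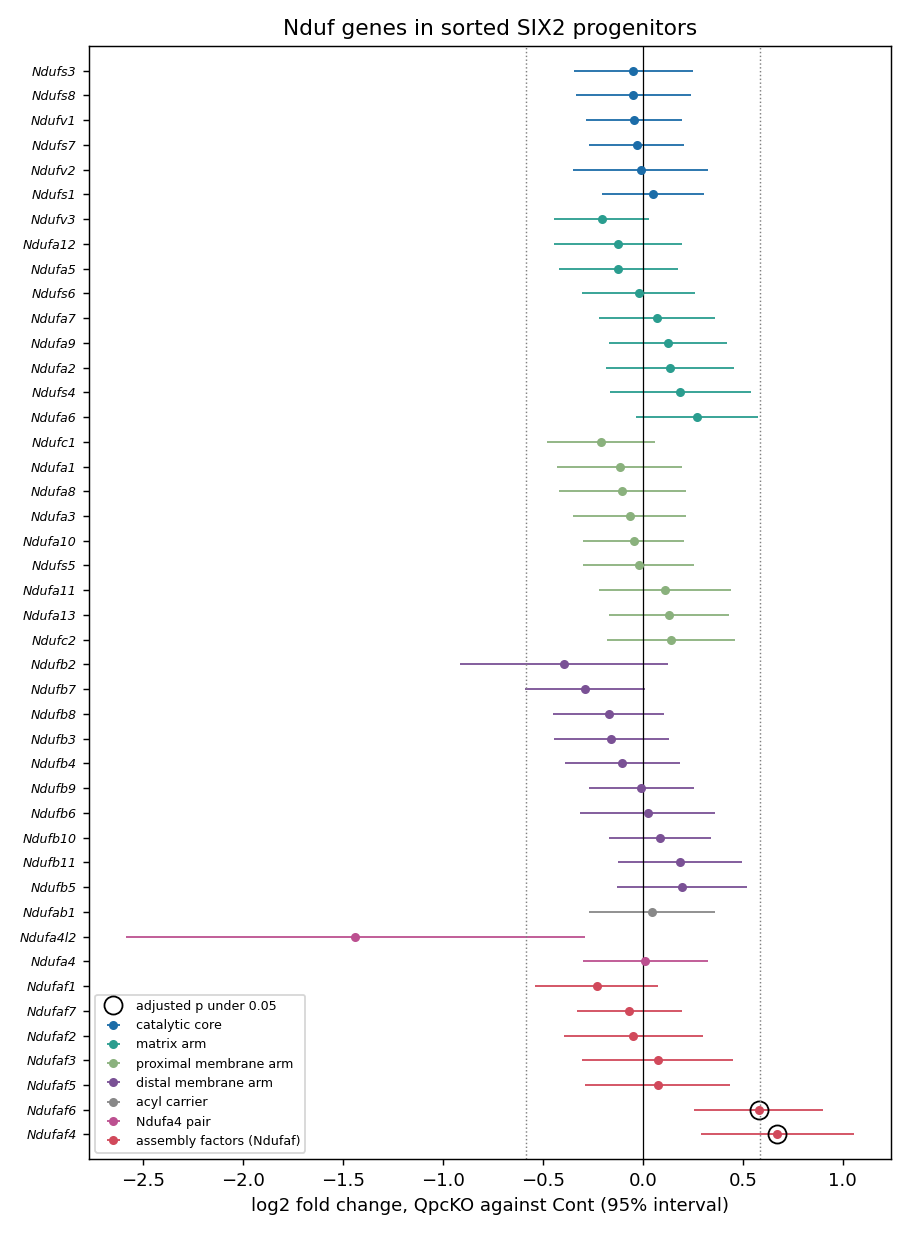
Log2 fold change of 44 of the 45 *Nduf* genes, QpcKO (n = 5) against Cont (n = 4), with its 95% interval from the edgeR fit, coloured by place in complex I. Dotted lines mark 1.5-fold, and circles mark *Ndufaf4* (0.67) and *Ndufaf6* (0.58), which had an adjusted p under 0.05; the subunit genes other than *Ndufa4l2* and *Ndufb2* lie between −0.29 and 0.27.

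In the catalytic core of the matrix arm, *Ndufv1* and *Ndufv2* form the site of NADH oxidation, *Ndufs1* carries iron-sulfur clusters, and *Ndufs3*, *Ndufs7* and *Ndufs8* belong to the part that leads on to ubiquinone. Of these 6 genes, 0 passed the edgeR test (14.8% of all genes tested) and 0 had an unadjusted p under 0.05 (31.4%). DESeq2 (21.2% of all), limma-voom (32.4%) and the fit with 1 surrogate variable (20.8%) each called 0. Their log2 fold changes ran from −0.05 (*Ndufs3*) to 0.05 (*Ndufs1*), with a median of −0.04. *Ndufv1* had 319.9, 273.6, 297.5 and 335.3 CPM in Cont 71, 72, 73 and 76. In QpcKO 74, 75, 77, 78 and 79 it had 249.99, 307.4, 319.7, 308.5 and 301.5 CPM. QpcKO 74 lay below every other library, and the remaining mutant libraries lay within the range of the controls. On the log2 scale the edgeR difference of *Ndufv1* was −0.04 (standard error 0.11, adjusted p = 0.825; 95% interval −0.28 to 0.19).

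The accessory subunits of the matrix arm, 9 genes, had a median log2 fold change of 0.07. Here 0 of 9 passed the edgeR test (14.8% of all genes tested) and 0 had an unadjusted p under 0.05 (31.4%). DESeq2 (21.2% of all) and the fit with 1 surrogate variable (20.8%) called 0. Limma-voom called 1 (32.4% of all), *Ndufa6*, with a log2 fold change of 0.45 and an adjusted p of 0.0131. The values ran from −0.21 (*Ndufv3*) to 0.27 (*Ndufa6*). *Ndufa6*, which encodes an accessory subunit that binds the acyl carrier protein near the ubiquinone site, had the largest positive change among the subunit genes. It had 184.2, 123.3, 131.5 and 175.0 CPM in Cont 71, 72, 73 and 76 and 159.7, 192.6, 193.4, 210.4 and 170.3 CPM in QpcKO 74, 75, 77, 78 and 79. The groups overlapped, since Cont 71 and Cont 76 lay above QpcKO 74 and QpcKO 79. On the log2 scale the edgeR difference was 0.27 (standard error 0.14, adjusted p = 0.208; 95% interval −0.03 to 0.58). *Ndufs4*, whose loss is used as a mouse model of Leigh syndrome, had 161.9 ± 33.6 CPM in controls and 184.4 ± 32.5 CPM in mutants, a log2 fold change of 0.19 (edgeR adjusted p = 0.466).

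The membrane arm has 9 accessory genes on its proximal side, next to the matrix arm, and 10 on its distal side. On the proximal side the median log2 fold change was −0.04, from −0.21 (*Ndufc1*) to 0.14 (*Ndufc2*), and on the distal side it was −0.05, from −0.40 (*Ndufb2*) to 0.20 (*Ndufb5*). Of the 19 genes, 0 were called by edgeR (14.8% of all genes tested) or DESeq2 (21.2%). An unadjusted edgeR p under 0.05 was found for 0 (31.4% of all). Limma-voom called *Ndufb11* on the distal side (32.4% of all), and the fit with 1 surrogate variable called *Ndufb3* and *Ndufb7* (20.8% of all). *Ndufb7*, which encodes a twin-CX9C protein facing the intermembrane space, had 173, 120, 126 and 128 CPM in Cont 71, 72, 73 and 76 and 98.9, 130, 109, 126 and 95.9 CPM in QpcKO 74, 75, 77, 78 and 79. Cont 71 stood above the other controls. QpcKO 78 lay among those other controls and QpcKO 75 just above them, while QpcKO 74, 77 and 79 lay below every control. The edgeR estimate was −0.29 on the log2 scale (adjusted p = 0.176, standard error 0.14). *Ndufb5* had 133.7 ± 22.9 CPM in controls and 153.4 ± 26.0 CPM in mutants (edgeR adjusted p = 0.399). *Ndufb2*, with 10.03 ± 3.22 and 7.63 ± 1.63 CPM, is uncertain. It was counted with only 113 to 371 reads per library, and in the annotation it shares exon sequence with *Gm42420* on the same strand and with *Braf* on the other.

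A few members do more than serve as a structural subunit of complex I. *Ndufab1* encodes the mitochondrial acyl carrier protein, which also works in fatty acid and lipoic acid synthesis; it had 247.4 ± 41.5 CPM in controls and 255.7 ± 40.1 CPM in mutants, with a log2 fold change of 0.05 (edgeR adjusted p = 0.858). *Ndufa4*, named as a complex I subunit and now assigned to complex IV, had 312.6 ± 57.3 and 315.3 ± 46.4 CPM and a log2 fold change of 0.01 (edgeR adjusted p = 0.964; 95% interval −0.30 to 0.33). Its paralog *Ndufa4l2*, a gene known to be induced by hypoxia, gave the lowest value of all 45 genes. It had 19.6, 8.02, 5.02 and 6.58 CPM in Cont 71, 72, 73 and 76 and 7.59, 1.86, 1.12, 5.36 and 2.09 CPM in QpcKO 74, 75, 77, 78 and 79. The mutant libraries QpcKO 75, 77 and 79 lay below every control, and QpcKO 74 and QpcKO 78 lay among the controls. The edgeR estimate was −1.44 on the log2 scale (standard error 0.53, adjusted p = 0.0840; 95% interval −2.59 to −0.29), from 22 to 459 reads per library. Without QpcKO 74 it was −1.91 with an edgeR adjusted p of 0.0231, and without Cont 71 it was −0.86 with an adjusted p of 0.305. Of the 9 fits that left out 1 library, 1 called it. *Ndufa4l2* overlaps *Shmt2* over 32 exonic bases on the opposite strand, and *Shmt2* had a mean of 4621 reads per library against 149.

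The level of the subunit transcripts varied between libraries of 1 genotype, and most subunits moved in the same direction from one library to another. For the 36 subunit genes other than *Ndufa4* and *Ndufa4l2*, the median deviation from each gene's mean log2 CPM was 0.23, −0.23, −0.07 and 0.12 in Cont 71, 72, 73 and 76. In QpcKO 74, 75, 77, 78 and 79 it was −0.23, 0.12, 0.05, 0.16 and −0.14. Cont 72 was the lowest control library for 32 of the 36 genes and QpcKO 74 the lowest mutant library for 27. Cont 71 was higher than Cont 72 for 34 of the 36 genes, by a median of 0.49 on the log2 scale, and QpcKO 78 was higher than QpcKO 74 for 33, by 0.39. These differences within a genotype were larger than the median difference between genotypes, −0.03. The measures are unlike, since each pair sets the highest single library of a genotype against its lowest. The value of −0.03 compares groups of 4 and 5 libraries. Together the 36 genes took 0.697%, 0.549%, 0.587% and 0.651% of all counts in Cont 71, 72, 73 and 76 (0.621% ± 0.0657). They took 0.532%, 0.613%, 0.584%, 0.626% and 0.562% in QpcKO 74, 75, 77, 78 and 79 (0.583% ± 0.0380), so the groups overlapped. On the scale of the normalized library size the sums were 6013 ± 842 CPM in controls and 6031 ± 650 CPM in mutants.

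**Figure D2:**
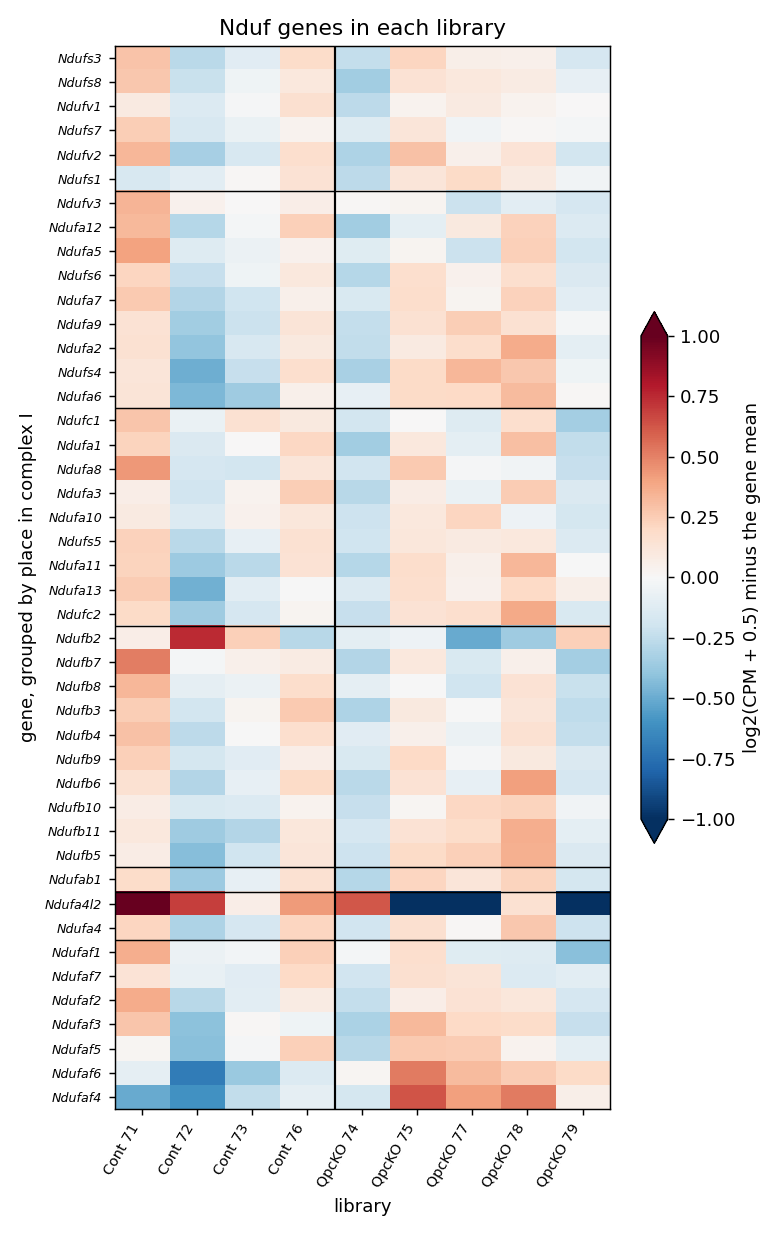
The same 44 *Nduf* genes in each library, as log2(CPM + 0.5) minus the gene's mean over the 9 libraries, with genes grouped by place in complex I and a vertical line between Cont and QpcKO. Cont 72 and QpcKO 74 are low for most subunit genes, while *Ndufaf4* and *Ndufaf6* in the lowest block are low in the controls.

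The 7 assembly factor genes had a median log2 fold change of 0.07 (−0.10 with 1 surrogate variable) and ranged from −0.23 to 0.67. *Ndufaf4* and *Ndufaf6* rose (2 of 7) and 0 fell in the edgeR test, where 7.82% of all genes tested rose and 7.02% fell. The same 2 genes were called by DESeq2 (21.2% of all), limma-voom (32.4%) and the fit with 1 surrogate variable (20.8%). Among 11 assembly factors without an *Nduf* name, edgeR called 0. *Ndufaf4* encodes a factor that works with *Ndufaf3* in an early assembly step of the matrix arm. It had 30.7, 28.6, 36.8 and 41.1 CPM in Cont 71, 72, 73 and 76, and 38.7, 68.0, 58.3, 62.9 and 45.6 CPM in QpcKO 74, 75, 77, 78 and 79. All mutant libraries except QpcKO 74 lay above every control, and QpcKO 74 lay between Cont 73 and Cont 76. The means were 34.3 ± 5.70 CPM (n = 4) and 54.7 ± 12.2 CPM (n = 5), a log2 difference of 0.67 (standard error 0.18, edgeR adjusted p = 0.0246), or 1.59-fold with a 95% interval of 1.22 to 2.08.

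*Ndufaf6* (ENSMUSG00000050323, chromosome 4, 11051045 to 11076205, minus strand) encodes a factor required for complex I assembly whose mutation causes Leigh syndrome. It had 45.5, 29.7, 37.3 and 44.0 CPM in Cont 71, 72, 73 and 76, and 49.3, 69.6, 60.5, 57.8 and 55.5 CPM in QpcKO 74, 75, 77, 78 and 79. Every mutant library lay above every control library, the closest pair being QpcKO 74 and Cont 71. No overlap was found for 15.2% of all genes tested (7.5% higher and 7.73% lower in mutants). The means were 39.1 ± 7.20 CPM and 58.5 ± 7.43 CPM, a log2 difference of 0.58 (standard error 0.15, edgeR adjusted p = 0.0222), or 1.496-fold with a 95% interval of 1.196 to 1.87. Neither *Ndufaf4* nor *Ndufaf6* shares exonic sequence with another annotated gene or has a near-identical transcript elsewhere (at least 95% identity over 200 bases).

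Both calls depended on single libraries, while the direction was the same in all 9 fits that left out 1 library. The edgeR adjusted p of *Ndufaf4* was 0.0719 without Cont 71 (log2 fold change 0.62), 0.0740 without Cont 72 (0.59) and 0.0573 without Cont 73 (0.71). It was 0.0542 without QpcKO 75 (0.58), 0.0517 without QpcKO 77 (0.65) and 0.0609 without QpcKO 78 (0.62). The adjusted p of *Ndufaf6* was 0.0649 without Cont 72 (0.47) and 0.0724 without Cont 73 (0.56). The number called over all genes also fell when Cont 71 was left out, to 1354 from 2225 in the main fit.

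**Figure D3:**
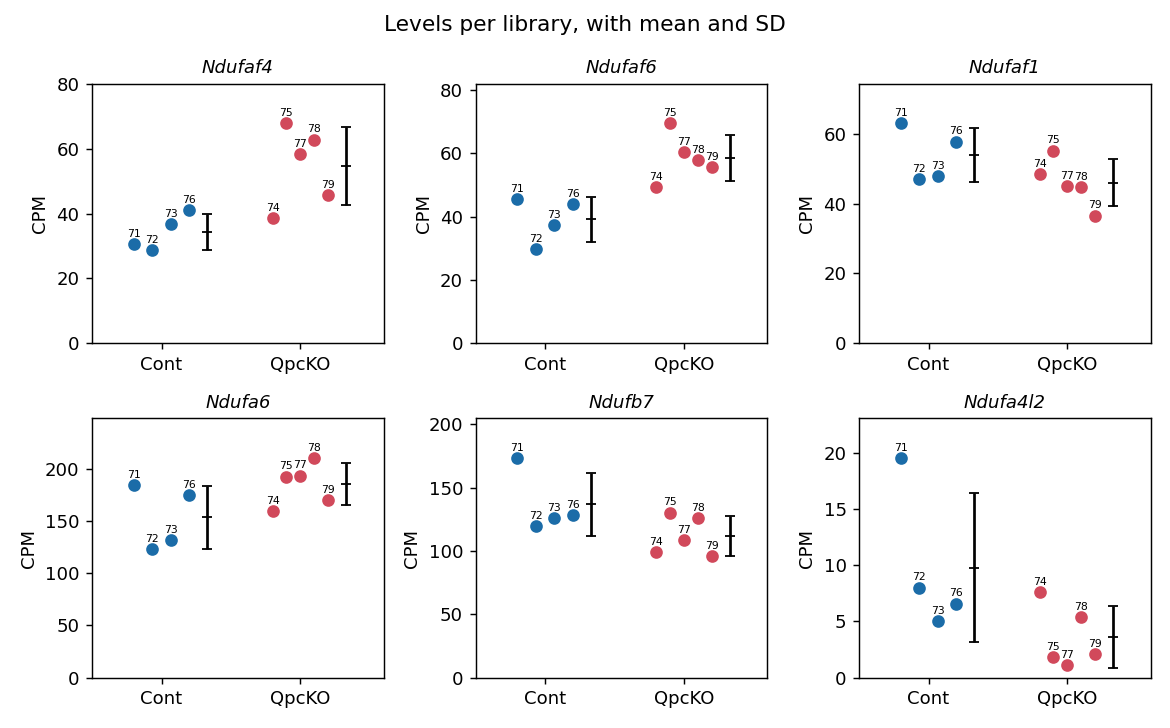
CPM of 6 *Nduf* genes in each library (points, labelled by replicate number), with the mean and SD of each genotype (n = 4 Cont, n = 5 QpcKO) beside them. *Ndufaf6* shows no overlap between genotypes, *Ndufaf4* overlaps only through QpcKO 74 and Cont 76, and *Ndufaf1*, *Ndufa6*, *Ndufb7* and *Ndufa4l2* overlap.

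The 5 remaining assembly factors had log2 fold changes from −0.23 to 0.07, and the 95% interval of each lay within 1.5-fold. Here 0 of 5 had an unadjusted p under 0.05 in the edgeR fit (31.4% of all genes tested). DESeq2 (21.2% of all), limma-voom (32.4%) and the fit with 1 surrogate variable (20.8%) each called 0. *Ndufaf1*, a member of the complex that builds the membrane arm, had 63.1, 47.0, 47.9 and 57.8 CPM in controls and 48.4, 55.2, 45.0, 44.8 and 36.5 CPM in mutants, which overlapped (log2 fold change −0.23, standard error 0.14, edgeR adjusted p = 0.294). *Ndufaf3*, the partner of *Ndufaf4*, had 34.1 ± 6.55 and 35.9 ± 6.93 CPM (0.07, edgeR adjusted p = 0.810). *Ndufaf5*, which hydroxylates an arginine of the NDUFS7 subunit, had 22.5 ± 4.14 and 23.7 ± 3.76 CPM (0.07). *Ndufaf7*, a methyltransferase required for assembly, had 70.0 ± 7.53 and 66.9 ± 7.62 CPM (−0.07). *Ndufaf2*, a paralog of the subunit *Ndufa12*, had 24.5 ± 4.91 and 23.7 ± 2.85 CPM (−0.05). *Ndufaf8*, which the rule missed because the table lists it as *1810043H04Rik* (matched by coordinates), had 32.9 ± 2.78 CPM in controls and 28.7 ± 2.74 CPM in mutants (−0.20, edgeR adjusted p = 0.311).

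Because the subunit transcripts differed between libraries of 1 genotype, the assembly factors were also set against them within each library. This scaling was chosen after the data were seen and carries no test. The share of all genes without overlap on this scale was not determined, and in CPM it was 15.2%. For every 1000 reads on the 36 subunit genes, *Ndufaf4* had 4.43, 5.65, 6.59 and 6.34 reads in Cont 71, 72, 73 and 76. It had 7.50, 10.4, 9.30, 9.43 and 8.23 in QpcKO 74, 75, 77, 78 and 79, so that QpcKO 74, which overlapped the controls in CPM, lay above each of them. *Ndufaf6* had 6.56, 5.87, 6.68 and 6.81 reads in the control libraries and 9.55, 10.7, 9.65, 8.67 and 10.01 in the mutant libraries. Its mean was 6.48 ± 0.417 in controls and 9.71 ± 0.734 in mutants, and no library of one genotype lay among those of the other. The difference of the mean log2 ratio between genotypes was 0.65 for *Ndufaf4* and 0.58 for *Ndufaf6*. The other 5 assembly factors together had 33.8 to 34.4 reads in controls and 29.3 to 34.8 in mutants, which overlapped.

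**Figure D4:**
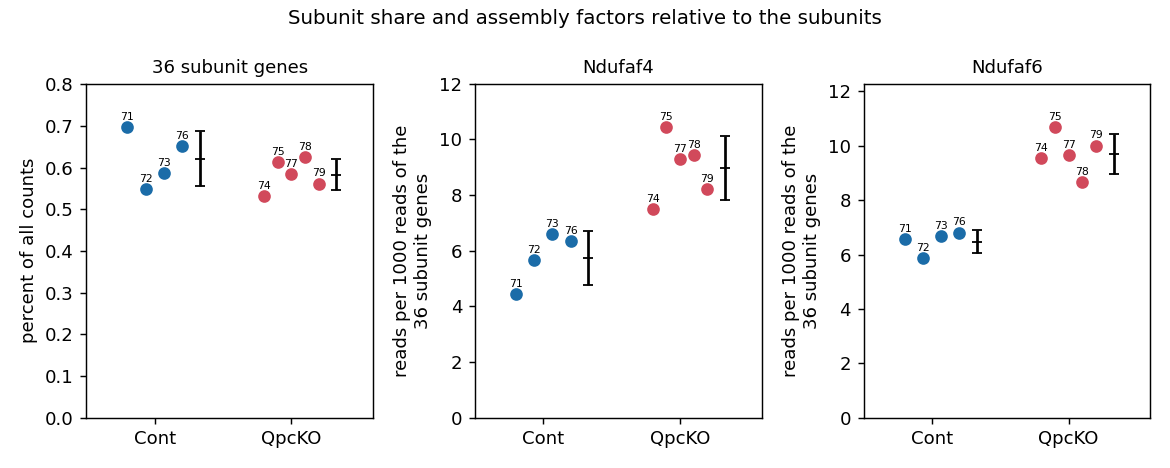
Left, percent of all counts on the 36 complex I subunit genes in each library; middle and right, reads of *Ndufaf4* and *Ndufaf6* per 1000 reads of those subunit genes, with the mean and SD of Cont (n = 4) and QpcKO (n = 5). The subunit share overlaps between genotypes, and for both assembly factors every QpcKO point lies above every Cont point. The scale of the middle and right panels was chosen after the data were seen and carries no test.

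Levels were compared between genes per kilobase of the length given in the table. In control cells the median was 146 CPM per kilobase over the 38 subunit genes and 32.0 over the 7 assembly factors. *Ndufa4* was highest, with 635 ± 116, and lay more than 2 SD above the next gene. It was followed by *Ndufb9* (386 ± 50.9), *Ndufa2* (373 ± 63.4), *Ndufa7* (341 ± 59.9) and *Ndufs7* (334 ± 41.7), whose neighbours in this order lay within 1 SD of each other. The lowest were *Ndufb2* (2.30 ± 0.74), *Ndufaf4* (9.44 ± 1.57) and *Ndufa4l2* (10.2 ± 6.90). In mutant cells *Ndufaf4* had 15.1 ± 3.36 CPM per kilobase and *Ndufaf6* had 54.1 ± 6.87, from 36.2 ± 6.66 in controls. The length listed for *Ndufaf4* is 3632 bases and that for *Ndufb2* 4371, against a median of 977 for the subunit genes, so their level per kilobase depends on the transcript that the table assumes.

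Genes that act with the *Nduf* genes were read from lists of the pathway. Of 11 assembly factors without an *Nduf* name, 0 passed the edgeR test (14.8% of all genes tested). An unadjusted p under 0.05 was found for 2, *Aifm1* and *Foxred1* (31.4% of all). DESeq2 called 0 (21.2% of all), the fit with 1 surrogate variable 1 (20.8%) and limma-voom 4 (32.4%), all lower in mutants. Their log2 fold changes ran from −0.43 (*Tmem186*) to 0.31 (*Timmdc1*), with a median of −0.13. The 7 core subunits encoded by mitochondrial DNA had a median log2 fold change of 0.42. This median includes 2 genes with few reads, *mt-Nd3* (32 to 85 per library, log2 fold change 0.56) and *mt-Nd4l* (6 to 14 per library, −0.04). In the edgeR test 2 of the 7 rose, where 7.82% of all genes tested were called higher. DESeq2 and the fit with 1 surrogate variable called 3, adding *mt-Nd2*, and limma-voom called 5, adding *mt-Nd2*, *mt-Nd5* and *mt-Nd6*, all higher in mutants. *mt-Nd1*, which lies at the junction of the arms, had 1683, 1207, 1510 and 1481 CPM in Cont 71, 72, 73 and 76 and 1758, 2441, 2574, 2614 and 1752 CPM in QpcKO 74, 75, 77, 78 and 79 (log2 fold change 0.60, edgeR adjusted p = 0.0236). *mt-Nd4*, a proton-pumping subunit, had 941.5, 695.1, 838.0 and 956.5 CPM in controls and 1001, 1222, 1241, 1238 and 1152 CPM in mutants (0.45, edgeR adjusted p = 0.0295). Every mutant library lay above every control library for both genes, which was so for 7.5% of all genes tested. The edgeR adjusted p of *mt-Nd1* was 0.0686 without Cont 72, 0.0646 without Cont 73, 0.0555 without QpcKO 77 and 0.0578 without QpcKO 78. That of *mt-Nd4* was 0.0836 without Cont 72, 0.0919 without Cont 73, 0.0590 without QpcKO 75, 0.0651 without QpcKO 77 and 0.0667 without QpcKO 78. The difference between the mitochondrially encoded and the nuclear-encoded subunits was not tested.

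Markers of other cell types were read beside these results, because the rise of *Ndufaf4* and *Ndufaf6* was measured in sorted pools. Over all genes tested, edgeR called 14.8%, DESeq2 21.2%, limma-voom 32.4% and the fit with 1 surrogate variable 20.8%. An unadjusted edgeR p under 0.05 was found for 31.4%. The summed level of 8 stromal markers was 93.7 to 152 CPM in controls and 193 to 579 CPM in mutants. It was highest in QpcKO 75, which also had the highest *Ndufaf4* and *Ndufaf6*. QpcKO 74 had the next highest sum (386 CPM) and the lowest *Ndufaf4* (38.7 CPM) and *Ndufaf6* (49.3 CPM) of the mutants. QpcKO 77 had the lowest sum of the mutants (193 CPM), with 58.3 CPM of *Ndufaf4* and 60.5 CPM of *Ndufaf6*. Of the 7 stromal markers tested, *Col1a1*, *Col3a1*, *Pdgfra* and *Foxd1* rose in the edgeR test and in the fit with 1 surrogate variable. DESeq2 called 5, all higher, and limma-voom called 6, of which *Pdgfrb* was lower (edgeR log2 fold change −0.51, adjusted p = 0.315). Myeloid markers summed to 2.22 to 4.79 CPM in controls and 4.47 to 25.6 CPM in mutants. In the edgeR test and in the fit with 1 surrogate variable, 1 of 3 rose (*Cd68*). All 3 had an unadjusted p under 0.05, and DESeq2 and limma-voom each called all 3 as higher (*Cd68*, *Csf1r* and *Ptprc*). Endothelial markers summed to 2.41 to 5.10 and 3.49 to 6.63 CPM. Of 3 tested, edgeR, DESeq2 and limma-voom called *Pecam1* as higher, and the fit with 1 surrogate variable called 0. In the edgeR fit *Emcn* was −0.17 (adjusted p = 0.802) and *Kdr* 0.74 (adjusted p = 0.553) on the log2 scale. *Cdh5* was at 0 in 3 of the 4 controls. Ureteric bud markers summed to 46.5 to 66.7 and 28.4 to 67.6 CPM. Of 4 tested, edgeR and the fit with 1 surrogate variable called 0, and 3 had an unadjusted edgeR p under 0.05. DESeq2 and limma-voom each called 2 as lower (*Wnt11* and *Hoxb7*). The edgeR estimates of *Calb1* (2.88, with 216 reads in QpcKO 77) and *Krt8* (0.38) were higher in mutants on the log2 scale. *Ret* and *Wnt9b*, which define the ureteric bud, had at most 13 reads in any library. The 4 erythroid genes summed to 1.31 to 2.66 and 1.43 to 2.35 CPM. Without QpcKO 75 the log2 fold changes of *Ndufaf4* and *Ndufaf6* were 0.58 and 0.51. The part of these cell types in the results was not tested.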

How the data were processed

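RNA-seq was available for SIX2 progenitors sorted by eGFP, 4 *Six2-Qpc*+/- and 5 *Six2-Qpc*-/- preparations, grouped by their labels. The submitters' processing notes name STAR, DESeq2 and build mm10; the counting tool and annotation are not given in the sources used here. The authors deposited read counts per gene, without strand, from cDNA amplified from low-input RNA with poly(A) selection. The deposited table also holds FPKM, a normalized signal per genotype, a log2 fold change and p-values from the authors' own comparison; none of these was used. Library totals of 21040536 to 23986458 counts leave the spread between libraries as the main error for all but the lowest genes.

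Counts were analysed with edgeR 4.0.16 in R 4.3.3 (filterByExpr, TMM, robust quasi-likelihood test, Benjamini-Hochberg adjustment over 14990 genes, threshold 0.05). Standard errors were obtained from each estimate and its F statistic (estimate over root F). Alternatives were DESeq2 1.42.0, RLE and upper-quartile factors, other count filters, limma-voom (limma 3.58.1) with quality weights, 1 surrogate variable (sva 3.50.0), offsets on gene length and each library left out. The scripts were tested on simulated data. Gene identifiers of 42 members matched the GENCODE annotation of GRCm38 by symbol; for *Ndufaf2*, *Ndufaf3* and *Ndufb6* they did not, and genes were matched by symbol. Genes named are those past the threshold, the 3 largest and 3 smallest changes of each class, the members with other roles, and the ends of each group; *Ndufaf3*, *Ndufv1*, *Ndufaf8*, *Ndufb11* and *Ndufb3* were added after their values were seen. The values of 1 member are not reported here, although it is in the counts and medians over all members. The members and lists were chosen with earlier results of these data known. Figures were drawn with Python 3.11.15 and matplotlib 3.10.9.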

Additional observations from a re-analysis of the deposited data

Results flagged for a closer look

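In 2 of the 92 groups of libraries examined (each reported *Nduf* gene in each genotype, with *Uqcrq* and the summed subunits), 1 library stood apart from the rest of its genotype by Dixon's criterion. Chance gives about 1 in 20 groups, or 4.6 of 92, so the number is no larger than chance alone would give. *Ndufb7* was 173 CPM in Cont 71, where the next control had 128 CPM. *Ndufv1* was 249.99 CPM in QpcKO 74, where the next mutant library had 301 CPM.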

How the results depend on the processing

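The number of *Nduf* genes past the threshold was 2 in the main edgeR fit, 5 with limma-voom, 5 after adding 1 surrogate variable, and 2 under each of the other 6 alternatives. With 1 library left out it ranged from 0 to 3. It was 0 without Cont 72 and without Cont 73, where 5 and 4 genes had an unadjusted edgeR p under 0.05. *Ndufaf4* and *Ndufaf6* were called under all 8 alternatives that kept every library, with log2 fold changes of 0.49 to 0.73 and 0.46 to 0.66. The medians of the subunits and of the assembly factors each moved by less than 0.2026. That limit is the SD of the subunit median over the control libraries, and it was used for both classes. It is larger in size than either median, so it could not detect a change of sign. Both medians changed sign. The subunit median (−0.0255) was 0.0736 by limma-voom, −0.131 after adding 1 surrogate variable, and −0.0977 to 0.0472 with 1 library left out, being above 0 without Cont 71, Cont 76, QpcKO 74 or QpcKO 79. The assembly factor median (0.0741) was −0.101 with 1 surrogate variable and −0.0392 to 0.146 with 1 library left out, being below 0 without Cont 72 or QpcKO 75. Values near 0 changed sign. *Ndufa4* was −0.0155 with upper-quartile factors, −0.116 with 1 surrogate variable and −0.0219 with length offsets, and with 1 library left out it ranged from −0.0809 to 0.100, being below 0 without Cont 72, Cont 73, QpcKO 75 or QpcKO 78. *Ndufaf2* was 0.0941 with limma-voom and ranged from −0.142 to 0.0849, being above 0 without Cont 71 or QpcKO 74. *Ndufaf7* was 0.0151 with limma-voom and 0.0215 with length offsets, and ranged from −0.116 to 0.00055, being above 0 without Cont 76. With 1 surrogate variable *Ndufab1* was −0.101, *Ndufaf5* −0.0692, *Ndufc2* −0.0019 and *Ndufs1* −0.0284. With 1 library left out *Ndufab1* ranged from −0.0543 to 0.118, being below 0 without Cont 72, QpcKO 75 or QpcKO 78, and *Ndufaf5* from −0.0392 to 0.186, being below 0 without Cont 72. The cause was not tested. No paired analysis was possible because the genotypes share no replicate number. Precision is limited by the 4 and 5 libraries, and for *Ndufa4l2* and *Ndufb2* also by few reads. Exons of 19 of the 45 genes overlap another gene, and 8 have a near-identical pseudogene transcript, so some of their reads could belong to a neighbour or copy.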

Other observations

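The other nuclear-encoded respiratory chain genes were read from the same fit. These were 38 genes of complex II (4), complex III other than *Uqcrq* (8), complex IV (10) and ATP synthase (16). EdgeR called 0 (14.8% of all genes tested), and 2 had an unadjusted p under 0.05 (31.4% of all). DESeq2 called 0 (21.2% of all). Limma-voom called 2, both higher in mutants (32.4% of all), and the fit with 1 surrogate variable called 4, all lower (20.8% of all). Their log2 fold changes ran from −0.29 to 0.30. The medians were −0.04 for complex II, 0.04 for complex III, 0.06 for complex IV and −0.04 for ATP synthase, beside −0.03 for the complex I subunit genes. The 8 other complex III genes ran from −0.29 to 0.18, beside −2.14 for *Uqcrq*.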
